A study of Arabidopsis thaliana with 3 samples.

Results

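Of 12127 named Arabidopsis thaliana genes with a value on all 3 arrays of a time course of auxin treatment, 40 stood 1.5-fold or more on the low side on the array of the last time, 60 minutes. They were chosen by a log2 ratio of -0.58495 or less on that array, with the probes of a gene averaged. This takes ratios of 0.66 or lower because the deposited ratios were rounded to steps of 0.01. The 60-minute values therefore chose these genes and are given only as a description, while the 20-minute and 40-minute values played no part in the choice. The seedlings were of ecotype Col-0, had been sown in lots of about 500 seeds on plates with 1% sucrose, stratified for 48 hours at 4 °C and kept in darkness at 25 °C for 4 days. They were then submerged either in the natural auxin indole-3-acetic acid (IAA), at 10 µM with 0.1% ethanol as carrier, or in the same ethanol solution without auxin, and were frozen after 20, 40 or 60 minutes, so the ethanol seedlings shared the submersion. Each of the 3 two-colour arrays compared total RNA of IAA seedlings with total RNA of ethanol seedlings of the same time, and each time had a single array, without replicates, so a value at 1 time has no error and no test. The labels leave unsaid if separate plates were used for each time.

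The numerator of the deposited ratios is not named in the labels. It is likely IAA, over ethanol, since the labels name ethanol as channel 1 and IAA as channel 2, and since all 6 measured GH3 genes, a family of auxin-conjugating enzymes in which several members are classic early auxin genes, stood above 0 at 60 minutes with a median log2 ratio of 2.57. "Lower" below means a negative deposited log2 ratio, likely lower in IAA seedlings than in ethanol seedlings. Whole seedlings were extracted, so that fewer cells of a type and less RNA per cell cannot be told apart, and a ratio gives no level, so the tissue could not be checked by its markers. Of the marker lists, the root hair genes EXPA7 and EXPA18 had log2 ratios of -0.40 and -0.54 at 20 minutes, -0.15 and -0.23 at 40 minutes and -0.10 and -0.27 at 60 minutes. The green tissue gene LHCB4.1 stood at -0.01, 0.26 and -0.04, and 0 of the seed storage and 0 of the stem cell niche markers were measured under a name. Any part of root hair or green cells in the values below was not tested.

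Auxin acts within minutes: it brings TIR1/AFB receptors together with Aux/IAA repressors, the repressors are destroyed, and auxin response factors are freed to act on their target genes. Most genes known as early auxin responders are activated, and repressed genes are less well described. A transcript level can drop no faster than its messenger RNA is degraded. In the low oxygen response, which submersion can bring on, group VII ethylene response factors are stabilised when oxygen runs short and switch on fermentation genes, and HRA1, one of the genes they switch on, holds them back.

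At 60 minutes the 40 genes spanned log2 ratios of -1.22 to -0.60, with a median of -0.69, and ratios of 0.43 to 0.66. They were 0.33% of the named genes, while 272 genes, or 2.24%, stood 1.5-fold or more on the high side of that array, and 42.5% of named genes stood below 0 there and 51.1% above. The lowest was AT3G20150, a motor protein gene of the kinesin-12 family, at -1.22. AT2G32580 followed at -1.09 and AT3G10040, known as HRA1, a trihelix transcription factor gene, at -1.03, and these 3 genes alone among the named genes were 2-fold or more lower. Just inside the limit, AT3G32230, PIF7 and AT5G65340 were tied at -0.60, and just outside it AT1G04040, AT1G23390 and AT4G32480 were tied at -0.58, 1 rounding step away. Another 34 probes that carry no gene name here passed the same limit and are not described.

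On the 20-minute array 17 of the 40 genes stood below 0 and 23 above, against 48.7% below and 47.6% above among all named genes. Their median log2 ratio was 0.16, with values from -0.58 to 0.64, where the median of all named genes was 0. None of the 40 was 1.5-fold or more lower at 20 minutes, where 1.28% of named genes were, and AT2G17860 came closest, at a log2 ratio of -0.58 and 1 rounding step short. On the high side 2 of the 40 were 1.5-fold or more, against 1.24% of named genes. At a limit of 1.3-fold, 1 of the 40 was lower and 6 were higher, against 3.82% and 3.88% of named genes. The genes low at 60 minutes were thus spread over both sides at 20 minutes.

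On the 40-minute array 21 of the 40 stood below 0, 17 above and 2 at 0, against 43.8% below and 53.1% above among all named genes. Their median was -0.05, with values from -1.29 to 0.98, where the median of all named genes was 0.03. A single gene, AT5G35480, was 1.5-fold or more lower at 40 minutes, beside 1.37% of named genes. On the high side 5 of the 40 were 1.5-fold or more, beside 5.73% of named genes. At 1.3-fold, 5 of the 40 were lower and 9 higher, beside 4.92% and 11.4% of named genes. That array had the widest spread of the 3, with a robust SD of 0.221 over named genes beside 0.165 on the 20-minute and 0.109 on the 60-minute array. When the arrays were set to the same spread, the count on the high side was 1 in place of 5. Scaling multiplies all 40-minute values by 0.75. The matching share of all named genes was not counted, so nothing is read from this change.

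**Figure D1:**
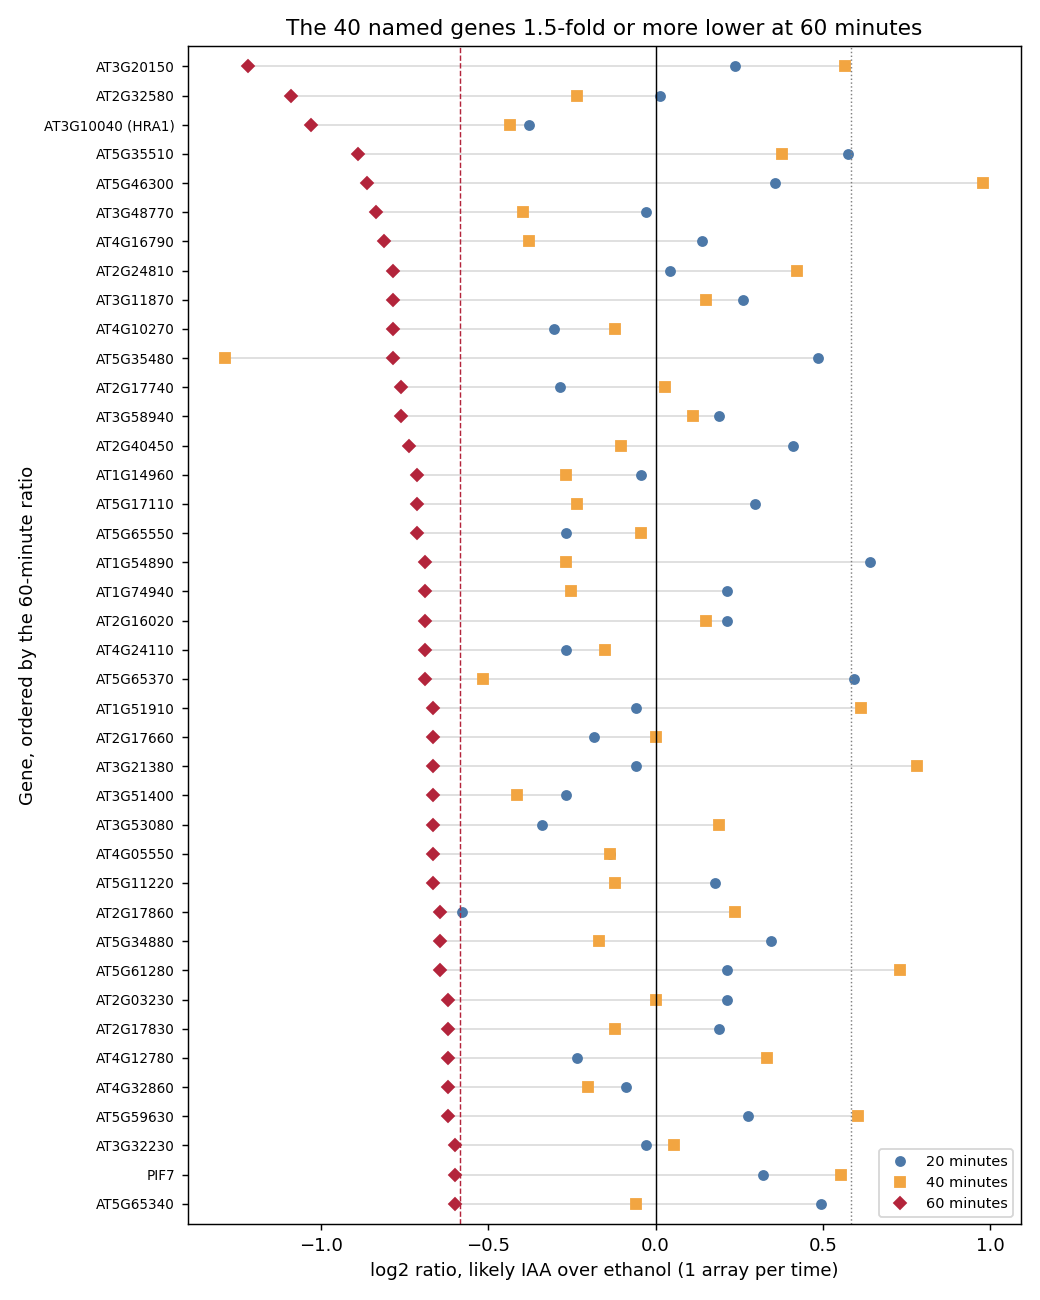
Log2 ratios of the 40 genes (x axis, likely IAA over ethanol, 1 array per time) at 20 minutes (circles), 40 minutes (squares) and 60 minutes (diamonds), with genes from top to bottom in order of the 60-minute value; the dashed line marks 1.5-fold on the low side and the dotted line 1.5-fold on the high side. The diamonds lie left of the dashed line because they chose the genes, while the circles lie between -0.58 and 0.64 and the squares between -1.29 and 0.98, on both sides of 0.

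Below 0 on both earlier arrays were 9 of the 40 genes, where 17.9% of all named genes were, and above 0 on both were 10, where 22% were. Another 12 stood above 0 at 20 and below 0 at 40 minutes, 7 the other way round, and 2 were at 0 at 40 minutes. Across the 40 genes Pearson's r between the 20-minute and 40-minute values was -0.03 and Spearman's rho 0.01, and over all 12127 named genes they were -0.10 and -0.16. These are correlations across genes, which share the 2 arrays and are not independent replicates. A gene's side at 20 minutes thus said little about its side at 40 minutes. In 21 of the 40 the 40-minute value lay between a higher 20-minute and a lower 60-minute value, and in 39 the 60-minute value was the lowest of the 3, counts that the choice of genes partly fixes (9.19% and 21.5% of all named genes). The exception was AT5G35480, lowest at 40 minutes.

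**Figure D2:**
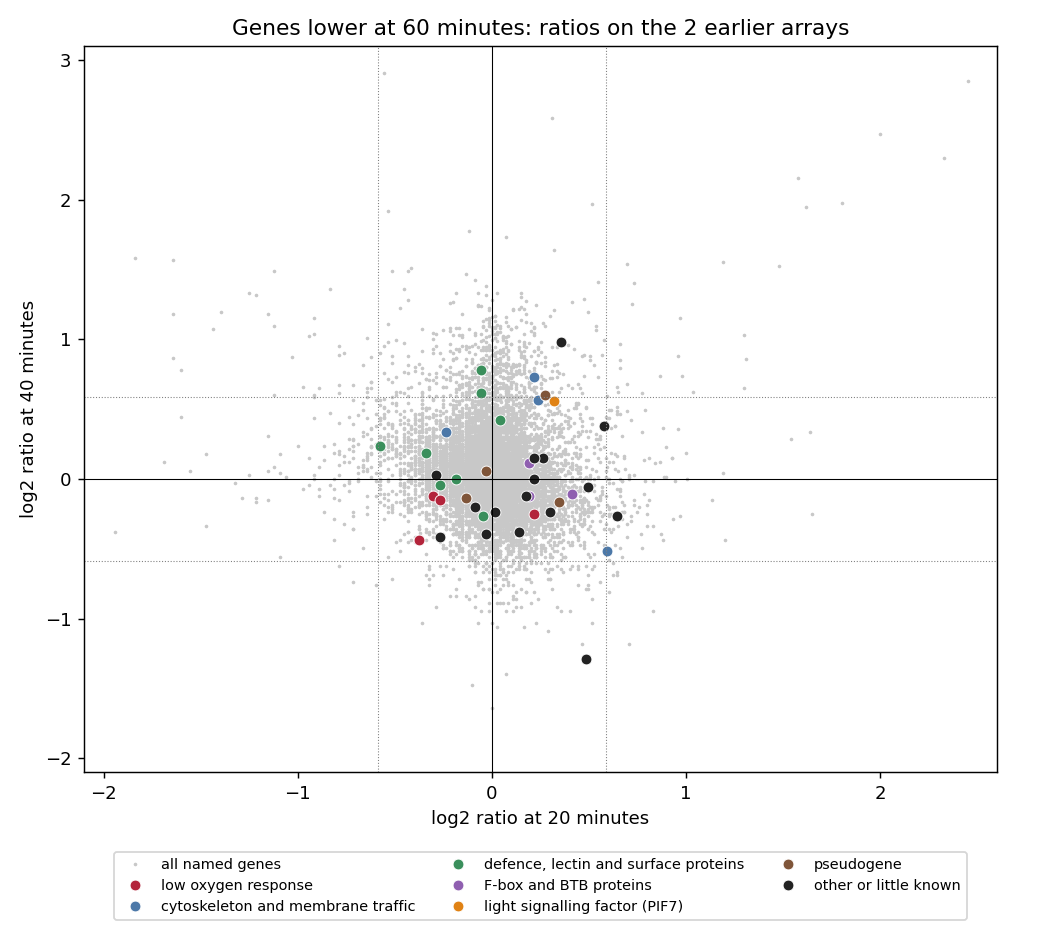
Log2 ratios at 20 minutes (x axis) and 40 minutes (y axis) of all 12127 named genes (grey points) and of the 40 genes lower at 60 minutes (large points, coloured by group), with dotted lines at 1.5-fold on each side. The 40 genes lie in all 4 quadrants, 9 of them below 0 on both arrays, and no large point lies left of the 1.5-fold line at 20 minutes.

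The genes were grouped by known function after their values had been seen. Genes of the low oxygen response numbered 4, of which 3 stood below 0 on both earlier arrays, where 17.9% of all named genes did. HRA1 had log2 ratios of -0.38 at 20, -0.43 at 40 and -1.03 at 60 minutes. AT4G10270, of the wound-responsive protein family and induced when oxygen is short, had -0.30, -0.12 and -0.79. Both were below 0 on the 20-minute and 40-minute arrays. The rule did not use those arrays, but their values were known when the group was formed. AT4G24110, a gene of little known function that is also induced by low oxygen, stood at -0.27, -0.15 and -0.69. AT1G74940, of the FCS-like zinc finger family, stood above 0 at 20 minutes and below it later, at 0.21, -0.25 and -0.69. On the earlier arrays 3 of the 4 were thus below 0 at 20 minutes and 4 of 4 at 40 minutes. Among all named genes 48.7% stood below 0 at 20 minutes and 43.8% at 40 minutes. The group was formed after its values were seen, so nothing is read from its counts.

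Of the low oxygen list described next, the 3 enzyme genes of anaerobic metabolism measured under a name were not taken by the rule. Genes of the list that were not measured under a name could not be examined. A list of 25 low oxygen genes, written with the HRA1 values known, had 8 measured under a name, of which HRA1 and AT4G10270 were taken by the rule. The other 6 spanned log2 ratios of -0.32 to 0.08 at 60 minutes. PDC2, a pyruvate decarboxylase of ethanol fermentation, stood at 0.06, 0.29 and -0.10. The lactate dehydrogenase gene AT4G17260 stood at -0.10, 0.15 and -0.04, and AlaAT1, an alanine aminotransferase, at -0.04, 0.15 and 0.01. None of these 3 enzyme genes came near the limit on any array. CML38, a calmodulin-like gene of the hypoxia response, stood at 0.44, -0.42 and -0.32. AT3G10020 stood at -0.25, 0.06 and 0.01, and AT5G10040 at 0.28, -0.12 and 0.08. The median of the 8 was -0.07 at 20, -0.03 at 40 and -0.07 at 60 minutes, and medians of all named genes were 0, 0.03 and 0.01. None of the 5 group VII ethylene response factors was measured under a name, and of 10 genes of the N-degron pathway that destroys them 1 was, AT2G41760, at 0.15, -0.27 and -0.04.

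**Figure D3:**
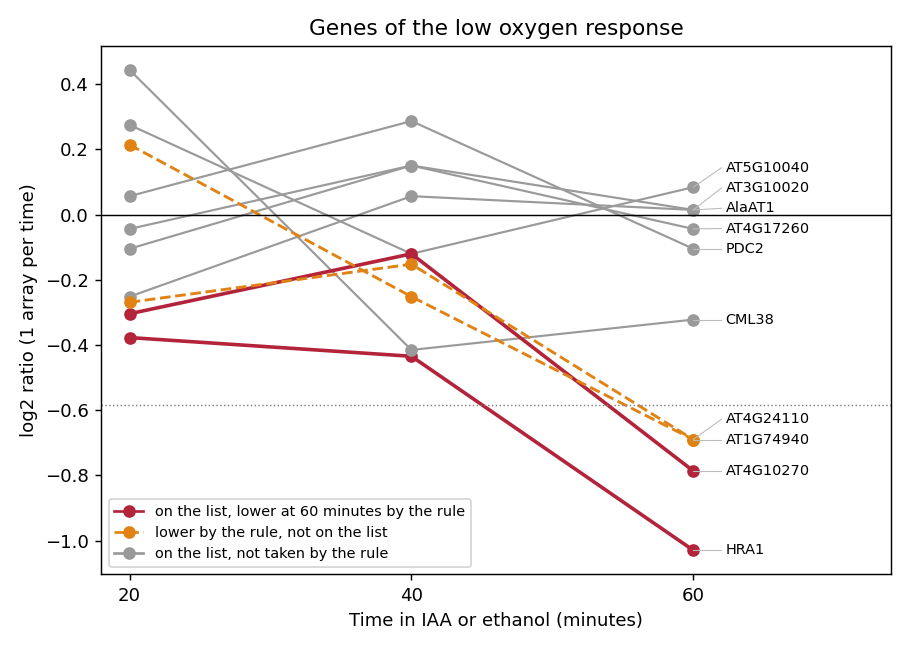
Log2 ratios (y axis, 1 array per time) at 20, 40 and 60 minutes (x axis) of the 8 measured genes of the low oxygen list (solid lines, red where the gene was among the 40) and of AT4G24110 and AT1G74940 (dashed), which are among the 40 and not on that list; the dotted line marks 1.5-fold on the low side. The red and dashed lines end between -1.03 and -0.69 because the 60-minute value chose them, and the grey lines end between -0.32 and 0.08.

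Transcription factor genes among the 40 were HRA1 and PIF7, a phytochrome-interacting bHLH factor that promotes growth in shade by way of auxin synthesis. PIF7 stood on the high side first, with log2 ratios of 0.32 at 20 and 0.56 at 40 minutes, and at -0.60 at 60 minutes. HRA1 was the only one of 8 measured trihelix genes among the 40. The other 7 lay between -0.54 and 0.26 on the 20-minute array, between -0.81 and 0.24 on the 40-minute array and between -0.17 and 0.29 on the 60-minute array. The lowest at 40 minutes was GT2, at -0.81, with 0 at 20 and -0.17 at 60 minutes. The rule itself keeps these 7 short of the limit at 60 minutes.

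Genes of the cytoskeleton and of membrane traffic numbered 4. AT3G20150 stood at 0.24, 0.57 and -1.22, so that the lowest gene at 60 minutes had been on the high side on both earlier arrays. Kinesin-12 motors are known from the phragmoplast, the structure that builds the new cell wall in dividing plant cells. Of the other 2 measured members of that family, which the rule left out, KINESIN-12B stood at -0.04, 0.70 and 0.01, and AT3G44050 at 0.20, 0.01 and 0.62. AT4G12780, an auxilin-like gene of clathrin-coated vesicles, stood at -0.23, 0.33 and -0.62. AT5G65370, of the ENTH/ANTH adaptor family, stood at 0.59, -0.51 and -0.69. AT5G61280, of the remorin family of plasma membrane proteins, stood at 0.21, 0.73 and -0.64. The 4 genes had no common course before 60 minutes.

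Proteins of defence, lectin and surface families made up 8 of the 40. Of these, 7 stood below 0 at 20 minutes, with a group median of -0.12 and values from -0.58 to 0.04. At 40 minutes 2 stood below 0 and 5 above, with a median of 0.21 and values from -0.27 to 0.78. Among all named genes 48.7% stood below 0 at 20 minutes and 53.1% above 0 at 40 minutes, and the group was formed after its values were seen, so nothing is read from its counts. The thaumatin family genes AT2G24810 and AT2G17860, related to pathogenesis proteins, stood at 0.04 and -0.58 at 20 minutes, 0.42 and 0.24 at 40 minutes, and -0.79 and -0.64 at 60 minutes. The jacalin-type lectin gene AT3G21380 stood at -0.06, 0.78 and -0.67, and the receptor kinase gene AT1G51910, with leucine-rich repeats, at -0.06, 0.61 and -0.67. Both were near 0 at 20 minutes and past 1.5-fold on opposite sides at 40 and 60 minutes. AT3G53080, of a galactose-binding lectin family, stood at -0.34, 0.19 and -0.67, and AT2G17660, of the NOI family of the immune regulator RIN4, at -0.18, 0 and -0.67. AT1G14960, a major latex protein gene, stood at -0.04, -0.27 and -0.71, and AT5G65550, a UDP-glycosyltransferase gene, at -0.27, -0.04 and -0.71. These last genes were the pair of the group that stayed below 0 on every array.

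Genes of ubiquitin ligase adaptor families numbered 3, all above 0 at 20 minutes, where 47.6% of all named genes were. Nothing is read from this count, since the group was formed after its values were seen. The F-box genes AT3G58940 and AT2G17830 stood at 0.19 and 0.19 at 20 minutes, 0.11 and -0.12 at 40 minutes, and -0.76 and -0.62 at 60 minutes. The BTB domain gene AT2G40450 stood at 0.41, -0.10 and -0.74. F-box and BTB proteins carry targets to ubiquitin ligases, and TIR1 is itself an F-box protein.

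The remaining genes were 4 annotated pseudogenes and 16 genes placed in no group. The pseudogenes were 10% of the 40, where 2.73% of all named genes are pseudogenes, and had no common course: AT4G05550 stood at -0.14, -0.14 and -0.67, AT5G34880 at 0.34, -0.17 and -0.64, AT5G59630 at 0.28, 0.60 and -0.62, and AT3G32230 at -0.03, 0.06 and -0.60. Signal at a pseudogene probe can come from a related transcript, which was not tested. Of the 16 other genes, 12 stood above 0 and 4 below at 20 minutes, with a median of 0.21. At 40 minutes 5 stood above 0 and 10 below, with a median of -0.16. Among all named genes 47.6% stood above 0 at 20 minutes and 43.8% below 0 at 40 minutes. The 16 were set apart after the values were seen, so nothing is read from their counts. AT2G32580 stood at 0.01, -0.23 and -1.09, AT3G48770 at -0.03, -0.40 and -0.84, and AT4G16790 at 0.14, -0.38 and -0.81. In these 3 each value was lower than the one before. AT5G35510 stood at 0.58, 0.38 and -0.89 and AT5G46300 at 0.36, 0.98 and -0.86, both high until 40 minutes. AT3G11870 stood at 0.26, 0.15 and -0.79, AT2G17740 at -0.29, 0.03 and -0.76, and AT1G54890 at 0.64, -0.27 and -0.69. AT5G35480 differed from the other 39 in its 40-minute value, with 0.49, -1.29 and -0.79. The 7 genes of the 16 not given so far with their values, AT5G17110, AT2G16020, AT3G51400, AT5G11220, AT2G03230, AT4G32860 and AT5G65340, stood between -0.27 and 0.50 at 20 minutes and between -0.42 and 0.15 at 40 minutes.

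The 9 genes below 0 at all 3 times were HRA1, AT3G48770, AT4G10270, AT1G14960, AT5G65550, AT4G24110, AT3G51400, AT4G05550 and AT4G32860. Such a course was found in 8.83% of all named genes, and the 60-minute value of the 9 was fixed by the choice. HRA1 was the lowest of them on each array. AT3G51400 came next on the 40-minute array, with -0.27, -0.42 and -0.67, while AT4G32860, at -0.09, -0.20 and -0.62, was close to 0 early. Of the 9, none was 1.5-fold or more lower before 60 minutes.

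The mean of the 20-minute and 40-minute ratios was tested against 0 across all 21859 genes and unnamed probes, leaving out the 60-minute array that chose the genes. None of the 40 passed in either direction (limma, two-sided, Benjamini-Hochberg adjusted p = 1 for each), and none of the 12127 named genes passed, or 0% in each direction. At an unadjusted p under 0.05, 1 of the 40 was negative and 4 were positive, beside 0.379% and 1.34% of named genes. HRA1 was the negative one, with a mean log2 ratio of -0.41 ± 0.11 (SE, 2 arrays) and a 95% interval of -0.74 to -0.07 (limma, unadjusted p = 0.0295). The positive ones were AT5G35510 at 0.48 ± 0.12, PIF7 at 0.44 ± 0.13, AT5G46300 at 0.67 ± 0.20 and AT5G59630 at 0.44 ± 0.14 (SE). AT3G20150, the lowest gene at 60 minutes, had a mean of 0.40 ± 0.14 (SE), with an interval of -0.03 to 0.83. The spread in this test lies between 2 time points with 1 residual degree of freedom per gene, and it holds change over time as well as error, so a miss says little about a gene. On simulated data the test recovered 0% of log2 changes of -1 or 1, and 68% and 64% of changes of -2 and 2. Those data also held log2 changes of -16, -8, 8 and 16, with 25 genes at each size. In the real data GH3.1, at 2.45 at 20 and 2.85 at 40 minutes, did not pass. The recovery of changes of -2 and 2 therefore cannot be carried over to the real data. The means of the 40 lay between -0.41 and 0.67, so the test could hardly have called any of them.

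Set beside the 40, the 272 named genes 1.5-fold or more higher at 60 minutes had a median log2 ratio of 0.04 at 20 and 0.18 at 40 minutes. On the high side by 1.5-fold or more were 20 of the 272 at 20 minutes and 69 at 40 minutes, or 7.35% and 25.4%. On their own side, the low one, the 40 had 0 at 20 minutes and 1 at 40 minutes, or 0% and 2.5%. Among all named genes 1.24% were 1.5-fold or more higher at 20 minutes and 5.73% at 40 minutes. On the low side these shares were 1.28% and 1.37%, so the 2 sides had unequal base shares at 40 minutes. The difference between the shares of the 272 and of the 40 was not tested, and the high set holds 4 of the 6 measured GH3 genes. Of the 155 named genes 1.5-fold or more lower at 20 minutes and the 166 at 40 minutes, the medians at 60 minutes were 0.10 and -0.07.

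**Figure D4:**
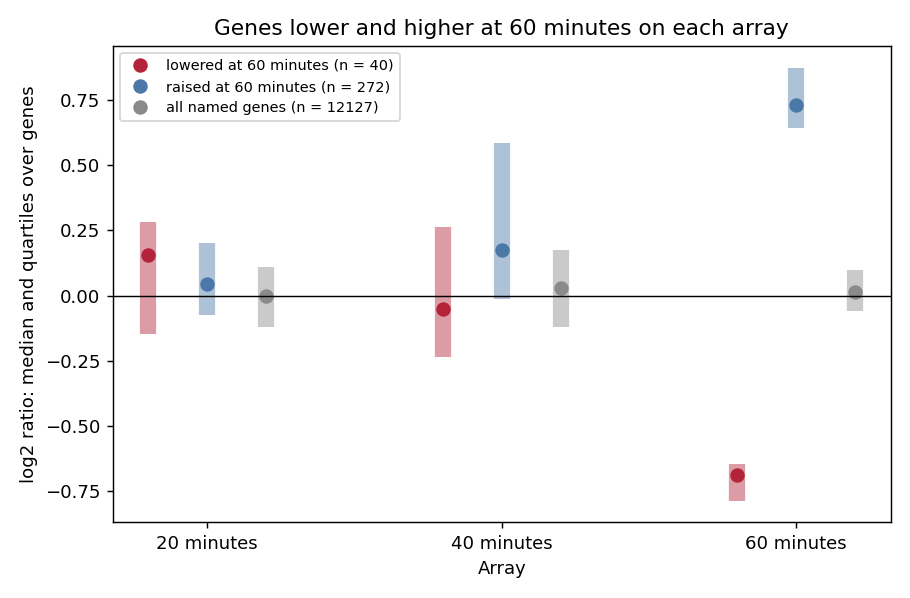
Median (points) and quartiles (bars) over genes of the log2 ratio (y axis) on each array (x axis) for the 40 genes lower at 60 minutes, the 272 genes higher at 60 minutes and all 12127 named genes. The 40 genes have medians of 0.16, -0.05 and -0.69, the 272 genes 0.04, 0.18 and 0.73, and the 60-minute values of both sets chose them.

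The 40 genes shared few features that the rule did not use. Their median gene length in the RefSeq annotation was 1533 bases, against 2138 bases over all named genes. Every one of the 40 was measured by a single probe, so none has a second probe to set beside it. Over the 55 named genes with several probes, the range between probes of a gene at 60 minutes had a median of 0.12 on the log2 scale, and 4 of the 55 had probes 1.5-fold or more apart. Only PIF7 has a gene symbol other than its locus code, with HRA1 listed as a synonym, and 88.1% of all named genes have the code alone. Chromosome 5 codes were carried by 12 of the 40 and chromosome 1 codes by 4, where they are 23.9% and 25.8% of all named genes.

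Of the loci next to one of the 40 in the RefSeq gene order, 27 others were measured under a name, with a median log2 ratio of 0 at 60 minutes, 12 below 0 and 12 above, and none of these could be 1.5-fold or more lower, since such a gene would be among the 40. Within the 40, PIF7 and AT5G61280 are neighbours. The next gene on the other side of PIF7, AT5G61260, stood at 0.15, 1.23 and -0.20, so that the 3 neighbours were each above 0 at 20 and 40 minutes and below 0 at 60 minutes. Their probes are spaced 89 probe numbers apart, and where each probe was spotted was not analysed here, so the part of gene order and of position on the array cannot be told apart. The median 60-minute value of the 20 probes nearest in number to each of the 40 lay between -0.08 and 0.15, and 6 of the 40 were within 10 probe numbers of another of them. With these local medians subtracted, 34 of the 40 still passed the limit.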

How the data were processed

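Transcripts were measured on 3 two-colour arrays, 1 per time (20, 40 and 60 minutes), each setting IAA seedlings against ethanol seedlings, per the labels. The authors deposited 1 table of log2 ratios for 21939 probes. 2 raised to each value is a multiple of 0.01 for 100% of values, within 1e-05, so the ratios were rounded. The sources used here do not give the numerator, dyes, background correction, normalization or platform design. No intensities were analysed here, so the number of arrays limits the precision. Missing values numbered 9, 10 and 7. Columns of other samples numbered 0.

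The platform annotation gave 12195 probes 1 gene, 1 probe several, and 9743 none. Of the 12195, 12142 matched a RefSeq gene table (TAIR10.1) by gene identifier, 44 by locus code and 9 by symbol. The table of values names no genome build, so no coordinates are printed. Sequences were not used here.

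Probes of a gene were averaged, and 21859 genes and unnamed probes had all 3 values. Values within 1e-05 of 0 count as 0. Shares below and above 0 and at 1.5-fold were counted over named genes. The mean of 20 and 40 minutes was tested with limma 3.58.1 in R 4.3.3, after a test on simulated data, and other values were computed with Python 3.11.15. Alternatives were other thresholds, centring, scaling to a common spread, single-probe genes, unnamed probes, and other limma settings. The genes, the lists and the groups by function were chosen with earlier results of these data known. The genes named were all 40, with full values for the 12 lowest, those below 0 at all 3 times and those 1.5-fold or more on either side at 20 or 40 minutes, plus measured list genes. Functions given are background knowledge, since the tables used carry no descriptions.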

Additional observations from a re-analysis of the deposited data

Results flagged for a closer look

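Of the 40 genes, 7 stood 1.5-fold or more on opposite sides at 60 minutes and at an earlier time. With 1 array per time the difference was not tested, and the 60-minute value of each chose it. At 40 minutes, on the array with the widest spread, 5 of the 40 were 1.5-fold or more on the high side, but 1 when the arrays were set to the same spread, while the count at 20 minutes was 2 either way. Among all named genes as deposited, 5.73% were 1.5-fold or more on the high side at 40 minutes and 1.24% at 20 minutes. These shares were not counted on the scaled arrays, where the 40-minute values are multiplied by 0.75 and the 20-minute values by 1.00. The log2 ratio at 60 minutes minus that at 40 minutes was -1.84 in AT5G46300, -1.45 in the lectin gene AT3G21380, -1.38 in the remorin gene AT5G61280, -1.28 in the receptor kinase gene AT1G51910 and -1.23 in the pseudogene AT5G59630. The ratio at 60 minutes minus that at 20 minutes was -1.33 in AT1G54890 and -1.28 in the adaptor gene AT5G65370.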

How the results depend on the processing

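The number of genes taken depends on the threshold and on the spread of the arrays. With limits of 1.4-fold, 1.8-fold and 2-fold it was 87, 5 and 3 in place of 40. With unnamed probes counted it was 74. With the arrays centred and scaled to the same median absolute deviation it was 176, the 40 among them, because the 60-minute array has the smallest spread and its values are multiplied by 1.51. With the median of the 10 probes on each side in probe number subtracted, an alternative chosen after seeing the data, it was 37, of which 34 were among the 40. The share of the 40 below 0 was 42.5% at 20 minutes under centring, under scaling and with single-probe genes alone. That outcome was fixed in advance, because the 20-minute array has a median of 0, scaling cannot change a sign and all 40 have a single probe. At 40 minutes the share was 52.5% with single-probe genes alone, which are the same 40, and 57.5% under centring and under scaling. In the 176 the shares were 39.8% and 59.1%. The medians at 20 and 40 minutes kept their sign under centring, scaling and single-probe genes, which for the 20-minute array and for single-probe genes was fixed in the same way. They also kept it in the protein-coding genes and in the 176, both chosen after seeing the data. These medians were not computed for the other limits, unnamed probes or subtracted local medians. The test of the mean made 0 calls under each of its settings. At an unadjusted p under 0.05 on scaled arrays, 2 of the 40 were negative and 6 positive (limma). Among the 12127 named genes, 82 were negative and 253 positive under that setting. No paired analysis was possible because each time has 1 array and the labels carry no replicate numbers, and leaving out an array of the 2 leaves no residual degrees of freedom.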

Other observations

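A wider list of 47 genes known to be induced by low oxygen in Arabidopsis was written from memory after the values of the 40 genes had been seen, so it gets no test and its counts support nothing. Of its 20 genes measured under a name, 15 stood below 0 and 5 above at 60 minutes, with a median log2 ratio of -0.15, beside 42.5% below 0 and a median of 0.01 over all named genes. The 4 that stood 1.5-fold or more lower were HRA1, AT4G10270, AT4G24110 and AT1G74940, and none stood 1.5-fold or more higher. AT5G42200 stood at -0.45, AT3G23170 at -0.42 and AT1G26270 at -0.32 at 60 minutes, and AT5G47060 was the highest, at 0.38. At 40 minutes the same 20 genes had a median of -0.10, with 11 below 0 and 9 above, and at 20 minutes a median of -0.05, with 11 below 0 and 8 above. At 40 minutes 1 was 1.5-fold or more lower and 2 higher, beside 1.37% and 5.73% of named genes. At 20 minutes 1 was lower and 1 higher by that limit, beside 1.28% and 1.24%. AT3G23170 was the highest at 20 minutes, at 0.87, and AT4G27450 at 40 minutes, at 0.82.

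Among neighbours of the 40 genes, AT1G14950 and AT1G14970, on either side of AT1G14960, stood at log2 ratios of 0.44 and 0.97 at 60 minutes beside its -0.71. AT5G17100 and AT5G17120, on either side of AT5G17110, both stood at -0.45 at 60 minutes beside its -0.71.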
